A study of Mus musculus with 8 samples.

Results

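Collagen chain genes encode the alpha chains of the collagens, the triple-helical proteins that make up most of the organic matrix of bone. The genes described here have a symbol of the form Col, number, a, number. They were chosen by name, with earlier results of these data known. There were 40 of them among the 19938 mouse genes tested, and each was read by 1 probe set. The array held 4 further genes of that name form, Col26a1, Col6a4, Col6a5 and Col6a6, which are not among the 40. By the structure of their products the 40 fall into 11 fibrillar chains, 9 chains of basement membranes and their surroundings, 4 chains of the beaded filament group, 3 short-chain network formers, 9 fibril-associated (FACIT) chains and 4 transmembrane chains.

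Fibrillar collagens assemble into the banded fibres that carry load. Type I, a trimer of Col1a1 and Col1a2 chains, is the main fibre of bone, type II that of cartilage, and type III accompanies type I in soft connective tissue and vessels. Type IV forms the meshwork of basement membranes, type VI forms beaded filaments around cells, FACIT collagens sit on the surface of fibrils, and type X marks hypertrophic cartilage.

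Expression was measured on 8 arrays, each with RNA of a separate primary osteosarcoma, a malignant tumour of bone-forming cells, grown on the C57Bl6 background. The 4 shRNA OS tumours carried P53.1224, a transgenic hairpin against p53, and the 4 Cre:lox OS tumours were P53fl/fl, with both p53 alleles floxed. Of the shRNA OS tumours, numbers 1 and 3 were tibial and Rbfl/+, number 2 was tibial and Rb+/+, and number 4 was humeral and Rbfl/+. Of the Cre:lox OS tumours, number 1 was scapular and Rb+/+, number 2 humeral and Rbfl/+, and numbers 3 and 4 tibial and Rbfl/+. The labels do not give the promoter behind Cre or the hairpin; in published accounts of such models it is that of Sp7 (osterix), active in the osteoblast lineage. All values below are log2 expression values, and a difference of 1 is a doubling.

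The arrays had medians of 7.40 to 7.60 over the genes tested, and precision was limited by the number of arrays. That of shRNA OS 2 stood apart: it correlated with the remaining 7 at 0.941 on average, and each of those at 0.961 to 0.968. Of 10 osteoblast markers 5 were measured, and all 5 lay above the array medians in each tumour. Their mean level was 12.01 to 12.32 in shRNA OS and 11.42 to 12.05 in Cre:lox OS. Sparc, a collagen-binding bone matrix protein, ran from 13.70 to 13.95.

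The promoters of 4 members on which the results turn are shown first. Col1a2 stands for the type I pair with its small spread. Col3a1 had the largest difference between models among the members, Col6a1 the smallest p between bone sites, and Col24a1 separated tibial from other tumours in both models. Each sequence is the 250 bases before the start site, 5′ to 3′ on the gene's strand, from RefSeq (GRCm38.p6). Capitals mark any match, on either strand, to 5 motifs. The TATA motif was searched as TATAAA. The box bound by NF-Y was searched as CCAAT. The GC box was searched as GGGCGG. The RUNX core was searched as TGTGGT. The AP-1 site was searched as TGANTCA.
Col1a2: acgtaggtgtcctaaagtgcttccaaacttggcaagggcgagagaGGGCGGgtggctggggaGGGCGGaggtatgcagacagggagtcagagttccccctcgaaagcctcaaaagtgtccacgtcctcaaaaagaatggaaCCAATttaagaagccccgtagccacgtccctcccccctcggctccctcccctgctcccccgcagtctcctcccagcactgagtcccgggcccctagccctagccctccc
Col3a1: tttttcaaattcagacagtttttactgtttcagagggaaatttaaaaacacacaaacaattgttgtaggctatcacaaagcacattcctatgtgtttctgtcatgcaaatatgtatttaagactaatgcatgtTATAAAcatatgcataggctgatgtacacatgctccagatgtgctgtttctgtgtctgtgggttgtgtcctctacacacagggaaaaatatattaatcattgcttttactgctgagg
Col6a1: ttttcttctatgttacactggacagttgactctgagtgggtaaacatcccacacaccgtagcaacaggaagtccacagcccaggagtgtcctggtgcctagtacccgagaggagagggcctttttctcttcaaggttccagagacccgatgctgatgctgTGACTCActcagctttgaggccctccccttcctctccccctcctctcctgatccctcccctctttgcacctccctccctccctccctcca
Col24a1: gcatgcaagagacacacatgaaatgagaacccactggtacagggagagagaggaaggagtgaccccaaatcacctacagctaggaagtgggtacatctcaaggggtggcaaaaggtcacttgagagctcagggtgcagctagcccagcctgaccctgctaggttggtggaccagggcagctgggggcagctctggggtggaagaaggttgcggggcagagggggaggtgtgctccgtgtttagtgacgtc

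The Col1a2 stretch lies at chr6:4505368-4505617 on the plus strand and holds 2 GC boxes and, 109 to 105 bases before the start, CCAAT. The Col3a1 stretch, at chr1:45311288-45311537 on the plus strand, holds TATAAA 117 to 112 bases before the start. The Col6a1 stretch, at chr10:76726045-76726294 on the minus strand, holds TGACTCA 90 to 84 bases before the start. The Col24a1 stretch, at chr3:145292222-145292471 on the plus strand, holds none of the 5 motifs.

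Promoter entries were matched for 32 of the 40 members, with 35 promoters in all; no entry was matched for Col1a1, Col2a1, Col4a3, Col5a2, Col9a3, Col12a1, Col14a1 and Col22a1. GGGCGG was found in 19 of the 35 promoters (54.3%), against 32.7% of all 32851 promoters. CCAAT was found in 34.3% against 33.8%, and TATAAA in 14.3% (Col3a1, Col10a1, Col11a2, Col13a1 and Col17a1) against 12.4%. TGTGGT was found in 8.57% against 14.0%. TGANTCA was found in 1 of the 35, that of Col6a1, against 6.75% of all promoters. These matches describe letters and are not evidence of binding.

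Type I collagen varied little among the tumours. Col1a1 measured 13.27, 13.45, 13.39 and 13.38 in shRNA OS 1 to 4 and 13.61, 13.55, 13.55 and 13.00 in Cre:lox OS 1 to 4. Col1a2 measured 13.08, 13.27, 13.22 and 13.32 in shRNA OS and 13.42, 13.37, 13.33 and 12.94 in Cre:lox OS. Both chains were lowest in Cre:lox OS 4 and highest in Cre:lox OS 1, and the 2 models overlapped. The differences between models were -0.06 (SE 0.16) for Col1a1 and -0.04 (SE 0.14) for Col1a2, smaller than their errors, and -0.20 and -0.15 without Cre:lox OS 4. The range over the 8 tumours was 0.60 for Col1a1 and 0.47 for Col1a2. Both genes lay near the top of the scale, where the largest value of any probe set was 14.57. Whether signal near the top narrowed their spread was not tested.

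The collagen genes as a whole were spread more widely than that. The range over the 8 tumours had a median of 1.04 among the 40 members and of 0.79 among all genes tested. It passed 2 in 9 of the 40 (22.5%) and in 6.01% of all genes. The widest were Col14a1 (3.64), Col3a1 (3.39), Col22a1 (3.15), Col6a3 (2.55) and Col11a1 (2.46), followed by Col2a1 and Col6a1 (2.34 each), Col15a1 (2.14) and Col10a1 (2.01). Cre:lox OS 4 held the lowest value of 18 members and the highest of 8. Cre:lox OS 1 held the highest value of 10 members and the lowest of 0. These counts were not made over all genes, so they cannot be read as particular to collagen genes. The interquartile range over all probe sets was widest in Cre:lox OS 4 (3.19) and narrowest in shRNA OS 2 (2.59).

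Above the array median over genes lay 24 members in all 8 tumours and 10 in some of them. The other 6, Col4a3, Col4a6, Col8a2, Col17a1, Col19a1 and Col28a1, lay below it in each tumour. Signal over background was not analysed here, so values given below for Col4a6 and Col17a1 among these dim genes carry that limit. It holds also for Col4a5, Col10a1 and Col23a1, which lay above the array median in 3 tumours each, and for Col20a1, above it in 1 tumour.

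**Figure D1:**
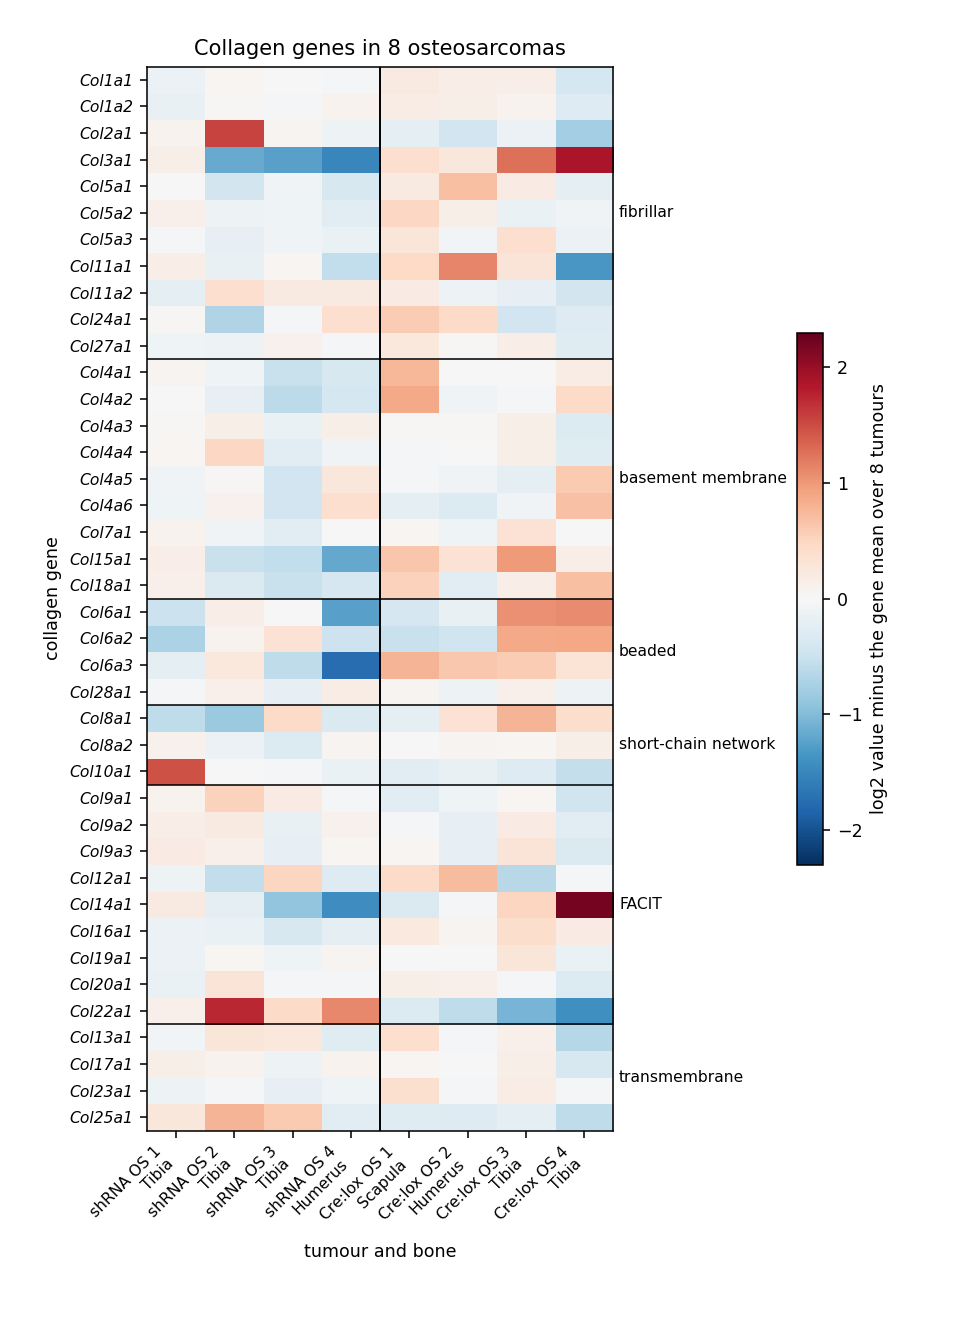
Heat map of the 40 collagen genes (rows, by structural class) in the 8 tumours (columns, with the bone). Colour gives the log2 value minus the gene's mean over the 8 tumours, with red higher and blue lower. Col1a1 and Col1a2 stay pale across the row, whereas Col3a1, Col14a1 and Col22a1 carry strong colour.

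The comparison of the models asks whether collagen expression differs between tumours made with a p53 hairpin and tumours of mice with floxed p53. The type III chain, the 3 type VI chains and 7 of 9 basement membrane chains had lower means in shRNA OS, and Col2a1 and Col22a1 higher means. None of the 40 members passed the limma adjusted p threshold of 0.05 over all genes, where 4 of 19938 genes did (0.0201%). At an unadjusted p under 0.05 there were 13 of the 40 (32.5%), against 9.63% of all genes. Of these, 9 had lower means in shRNA OS (Col3a1, Col4a1, Col4a2, Col5a1, Col6a3, Col8a1, Col15a1, Col16a1 and Col18a1; 6.02% of all genes). The other 4 had higher means (Col2a1, Col9a1, Col22a1 and Col25a1; 3.61% of all genes). The count of 13 was 7 without shRNA OS 2, 8 without shRNA OS 3, 8 without Cre:lox OS 4 and 8 after quantile normalization.

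Means were lower in shRNA OS for 26 members and higher for 14, whereas 51.9% of all genes were higher. The median difference was -0.13 over the members and 0.01 over all genes. Among tibial tumours alone the members split evenly, 20 higher and 20 lower. The 4 shRNA OS and 4 Cre:lox OS tumours did not overlap in 7 members, against 5.44% of all genes. Of the 7, Col2a1, Col10a1 and Col22a1 were higher in shRNA OS (2% of all genes), and Col3a1, Col6a3, Col15a1 and Col16a1 lower (3.44%). That count was 11 without shRNA OS 1 and 12 without Cre:lox OS 4.

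**Figure D2:**
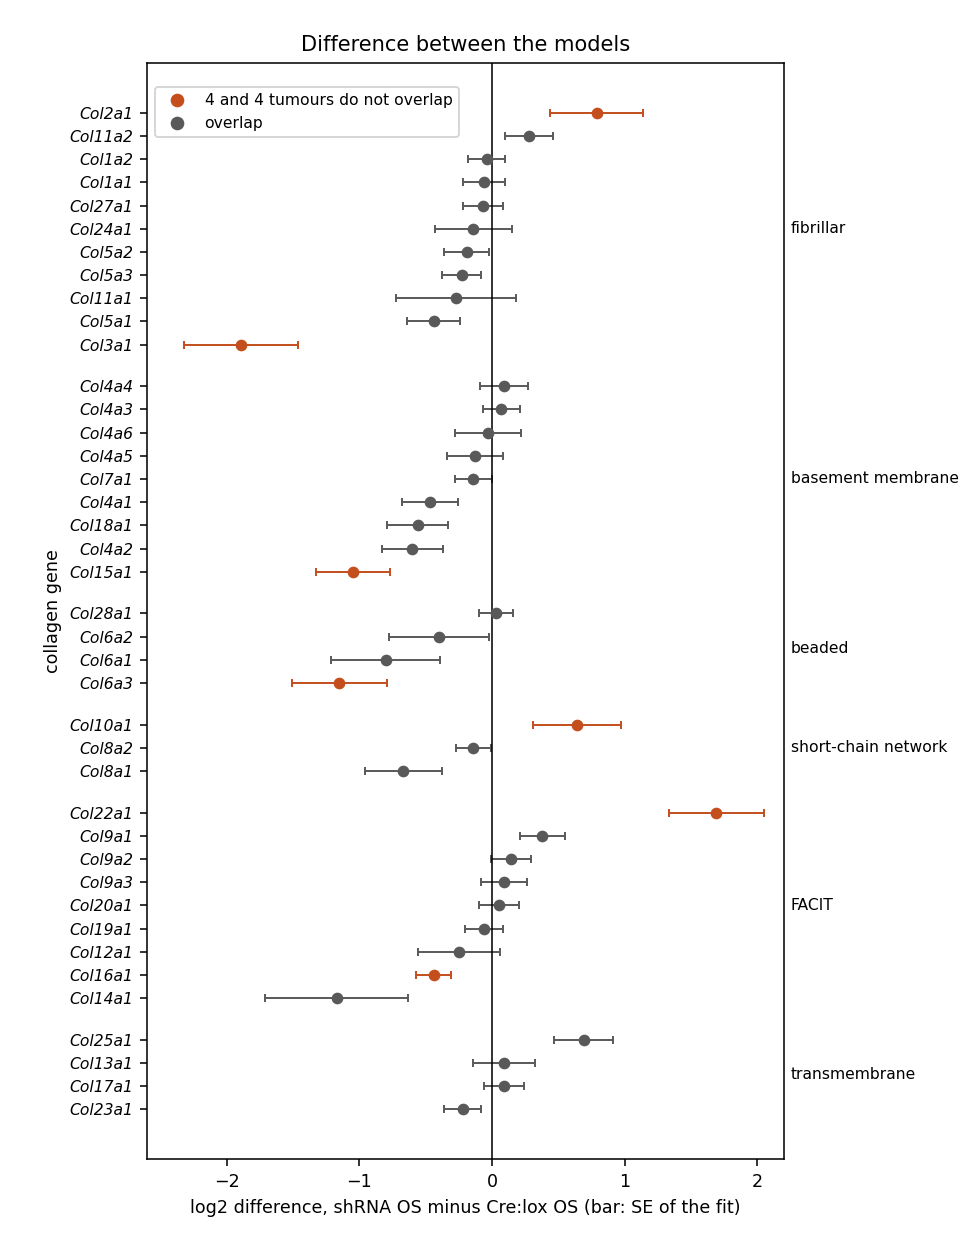
Difference between the models for each of the 40 collagen genes, ordered within structural class. The x axis is the log2 difference, shRNA OS minus Cre:lox OS, with the standard error of the fit as bars, and orange marks the 7 genes whose 4 and 4 tumours do not overlap. Col22a1 lies farthest to the right at 1.69 and Col3a1 farthest to the left at -1.89.

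Among the 11 fibrillar chains, the shRNA OS mean was lower in 9 and higher in 2, with a median difference of -0.14. Col3a1, the single chain of type III collagen, measured 9.85, 8.56, 8.48 and 8.22 in shRNA OS 1 to 4. In Cre:lox OS 1 to 4 it measured 10.10, 9.98, 10.99 and 11.60. Each Cre:lox OS tumour lay above each shRNA OS tumour, with shRNA OS 1 close to the scapular and humeral Cre:lox OS tumours. The mean difference was -1.89 (SE 0.43), with unadjusted p = 0.00156 and limma adjusted p = 0.209.

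Of 11 fibroblast markers measured, 8 had lower and 3 higher shRNA OS means, none past the adjusted threshold, and their mean level was 8.29 to 9.19 in shRNA OS and 8.80 to 9.92 in Cre:lox OS. S100a4, a calcium-binding protein of motile cells, had the smallest p of that list, with a difference of -1.37 (SE 0.27, limma adjusted p = 0.15). Macrophage and skeletal muscle markers had lower means in shRNA OS in 11 of 11 cases each. The mean level of macrophage markers was 9.27 to 11.06 in shRNA OS and 9.89 to 11.33 in Cre:lox OS, and that of skeletal muscle markers 7.38 to 10.73 and 7.96 to 10.54. The part of these cells in the differences of Col3a1, Col6a3, Col14a1 and Col15a1 was not tested, and in whole tumours fewer cells of a type and less RNA per cell cannot be told apart.

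Col5a1 and Col5a2, chains of the type V collagen that nucleates type I fibrils, had differences of -0.44 (SE 0.20) and -0.19 (SE 0.17), and Col5a3 of -0.23 (SE 0.15). Col24a1 and Col27a1, further fibrillar chains, differed by -0.14 (SE 0.29) and -0.07 (SE 0.15). The limma adjusted p of these 5 ran from 0.518 to 0.921.

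Chains of cartilage collagen leaned the other way. Of 8 cartilage members, 6 lay higher on average in shRNA OS and 2 lower, with a median difference of 0.21. Each of the 8 was lowest in Cre:lox OS 4, where their mean level was 7.88. It was 8.45, 8.42 and 8.48 in Cre:lox OS 1 to 3 and 8.36 to 8.74 in shRNA OS, so the lean rested largely on that tumour. Col2a1, the type II chain, measured 8.64, 10.11, 8.62 and 8.44 in shRNA OS 1 to 4 and 8.34, 8.12, 8.43 and 7.77 in Cre:lox OS 1 to 4. The groups almost touched, with shRNA OS 4 just above Cre:lox OS 3, and shRNA OS 2 lay far above all others. The difference was 0.79 (SE 0.35, limma adjusted p = 0.509) and 0.40 without shRNA OS 2.

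Col10a1, the type X chain, measured 9.04, 7.58, 7.55 and 7.43 in shRNA OS and 7.32, 7.41, 7.28 and 7.03 in Cre:lox OS. A single tumour, shRNA OS 1, stood far above the other 7, which lay close together. The lowest shRNA OS value, 7.43, lay just above the highest Cre:lox OS value, 7.41. The difference was 0.64 (SE 0.33, limma adjusted p = 0.574), and 0.26 without shRNA OS 1.

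The type IX chains, FACIT collagens that decorate type II fibrils, had small differences. Col9a1 measured 7.85, 8.31, 7.96 and 7.75 in shRNA OS and 7.52, 7.68, 7.83 and 7.31 in Cre:lox OS, a difference of 0.38 (SE 0.17, limma adjusted p = 0.507). Col9a2 ran from 7.72 to 8.18 and Col9a3 from 7.71 to 8.34 over the 8 tumours, with differences of 0.14 (SE 0.15) and 0.09 (SE 0.17). That of Col9a2 was 0.09 without shRNA OS 2, 0.08 without Cre:lox OS 4, 0.22 without shRNA OS 3 and 0.23 without Cre:lox OS 3. All 3 overlapped between the models and were lowest in Cre:lox OS 4.

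The type XI chains, which form the core of cartilage fibrils and also occur in bone, went opposite ways. Col11a1 measured 10.37, 10.05, 10.26 and 9.64 in shRNA OS and 10.67, 11.33, 10.52 and 8.88 in Cre:lox OS, with the 2 extremes both in Cre:lox OS. Its difference was -0.27 (SE 0.45), and it turned to 0.53 among tibial tumours alone and to 0.06 without Cre:lox OS 2. It was -0.76 without Cre:lox OS 4, -0.12 without shRNA OS 4 and -0.16 without Cre:lox OS 1. Col11a2 measured 8.56, 9.18, 8.99 and 8.99 in shRNA OS and 8.97, 8.67, 8.60 and 8.36 in Cre:lox OS, a difference of 0.28 (SE 0.18), and of 0.18 without Cre:lox OS 4.

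Chondrocyte markers other than collagens were also read. Their mean level over 11 measured genes was 6.68 to 6.94 in shRNA OS and 6.60 to 7.20 in Cre:lox OS, and the shRNA OS mean was higher in 7 and lower in 4. On average over the tumours, 4 of the 11 lay above the array medians, among them Sox9 (7.78 to 9.02). Hapln1 ran from 5.42 to 10.81, with 8.42 in shRNA OS 1 and 10.81 in Cre:lox OS 2. Matn1, Cnmd, Ucma and Snorc lay between 5.43 and 6.16 in all tumours, below the array medians. Acan, the main proteoglycan of cartilage, ran from 5.82 to 6.12 in shRNA OS and from 6.41 to 8.84 in Cre:lox OS. Its difference was -1.49 (SE 0.45, limma adjusted p = 0.319), opposite in sign to that of Col2a1. Its values lay below the array medians in all shRNA OS tumours and in Cre:lox OS 1 (6.80) and Cre:lox OS 3 (6.41). Chad, a leucine-rich protein of cartilage matrix, measured 6.75, 8.62, 9.76 and 8.03 in shRNA OS and 6.76, 7.64, 6.99 and 6.60 in Cre:lox OS, a difference of 1.29 (SE 0.54, limma adjusted p = 0.478). The part of cartilage cells in the values of Col2a1 and Col10a1 was not tested.

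**Figure D3:**
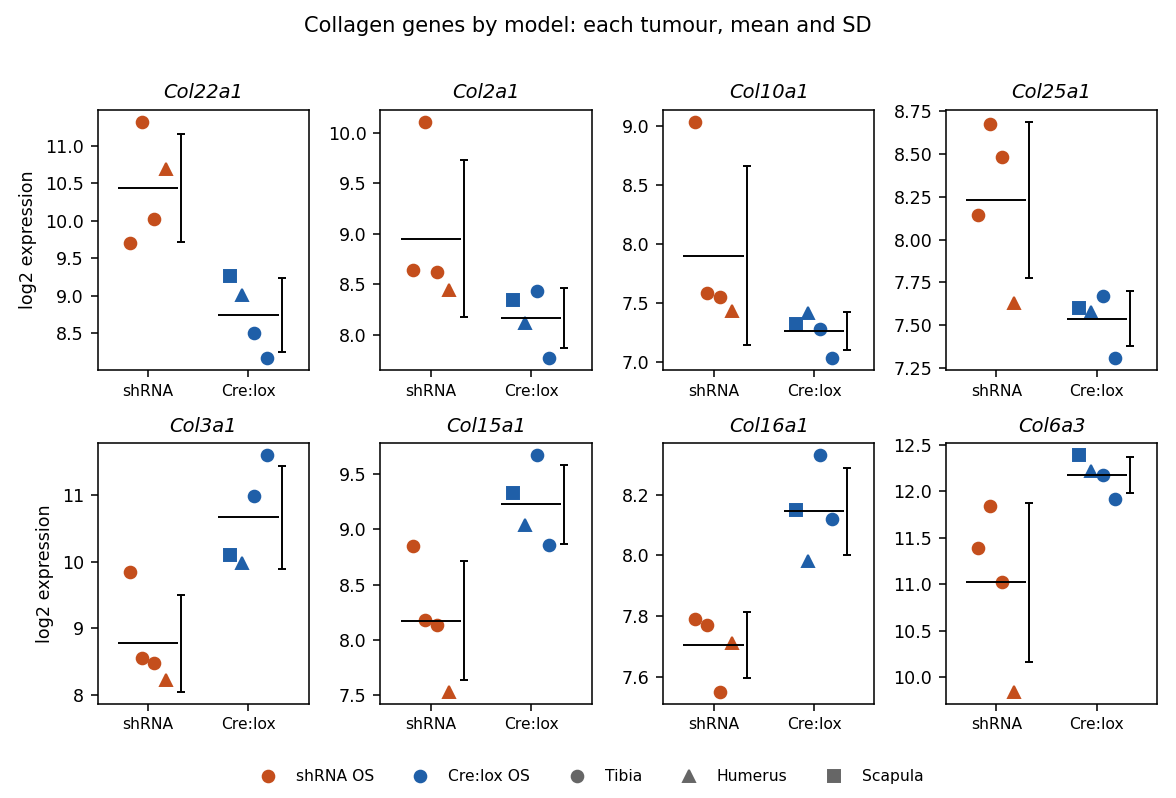
Log2 expression of 8 collagen genes in each tumour, by model. Points are tumours (circle tibia, triangle humerus, square scapula), the horizontal line is the mean of 4 tumours and the bar its SD. The upper row holds genes with higher means in shRNA OS and the lower row genes with lower means, with Col2a1 set apart by shRNA OS 2 (10.11) and Col10a1 by shRNA OS 1 (9.04).

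The fibril-associated chains differed among themselves. In 5 of the 9 the shRNA OS mean was higher and in 4 lower, with a median of 0.05. Col22a1, a FACIT chain known from myotendinous junctions, measured 9.70, 11.32, 10.02 and 10.69 in shRNA OS 1 to 4. In Cre:lox OS 1 to 4 it measured 9.27, 9.01, 8.51 and 8.17. The models did not overlap, with tibial Cre:lox OS tumours at the bottom and shRNA OS 2 at the top. The difference of 1.69 (SE 0.36) had the smallest p of any member (unadjusted p = 0.000981, limma adjusted p = 0.192), and was 1.40 without shRNA OS 2.

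Genes beside Col22a1 on chromosome 15 also had higher means in shRNA OS. Of its 20 nearest measured neighbours, 10 on each side, 20 had higher means in shRNA OS, against 51.9% of all genes. Their median difference was 0.63, and 8 had an unadjusted p under 0.05, against 9.63% of all genes. In shRNA OS 2 the 20 neighbours were a median of 0.60 above the mean of the other shRNA OS tumours, and Col22a1 itself 1.19 above, where the median over all genes was -0.04. The neighbours of Col14a1, on the same chromosome, were a median of 0.85 higher in shRNA OS 2, though their median difference between models was -0.09. The part of the shared locus in the Col22a1 difference was not tested.

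Col14a1, a FACIT chain of tendon and skin, measured 8.93, 8.53, 7.82 and 7.30 in shRNA OS and 8.40, 8.70, 9.22 and 10.94 in Cre:lox OS. The 2 models overlapped in the middle, with Cre:lox OS 4 far above and shRNA OS 4 lowest. The difference was -1.17 (SE 0.54, limma adjusted p = 0.536), and -0.63 without Cre:lox OS 4. Col16a1, found in several connective tissues, measured 7.79, 7.77, 7.55 and 7.71 in shRNA OS and 8.15, 7.98, 8.33 and 8.12 in Cre:lox OS. Its 2 groups were tight and did not overlap, with a difference of -0.44 (SE 0.13, limma adjusted p = 0.306).

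Basement membrane chains had lower means in shRNA OS in 7 of 9 cases, with a median of -0.14. Among the 7, Col4a5 (-0.13, SE 0.21), Col4a6 (-0.03, SE 0.25) and Col7a1 (-0.14, SE 0.14) had differences no larger than their errors. Col4a1 measured 9.02, 8.86, 8.45 and 8.60 in shRNA OS and 9.73, 8.95, 8.97 and 9.14 in Cre:lox OS, a difference of -0.47 (SE 0.21, limma adjusted p = 0.509), and of -0.29 without Cre:lox OS 1. Its partner Col4a2 measured 9.01, 8.83, 8.42 and 8.62 in shRNA OS and 9.89, 8.94, 8.98 and 9.46 in Cre:lox OS, a difference of -0.60 (SE 0.23, limma adjusted p = 0.442). In both genes shRNA OS 1 overlapped Cre:lox OS 2 and 3, and the scapular tumour Cre:lox OS 1 was highest.

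Endothelial markers, whose cells lay down much type IV collagen, leaned the opposite way. Of 11 measured, 10 had higher means in shRNA OS, and their mean level was 9.24 to 9.84 in shRNA OS and 8.73 to 9.79 in Cre:lox OS. Genes beside Col4a1 on chromosome 8 did lean with it, 3 of 20 neighbours having a higher mean in shRNA OS and the median difference being -0.38. The part of either in the type IV values was not tested.

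Col15a1, a chain that links basement membranes to nearby fibrils, measured 8.85, 8.18, 8.13 and 7.53 in shRNA OS and 9.33, 9.04, 9.67 and 8.86 in Cre:lox OS. The groups did not overlap, although shRNA OS 1 nearly reached Cre:lox OS 4. The difference was -1.05 (SE 0.28, unadjusted p = 0.00381, limma adjusted p = 0.246). Its relative Col18a1, the source of endostatin, differed by -0.56 (SE 0.23, limma adjusted p = 0.462), with overlap.

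Type VI chains had lower means in shRNA OS to unequal extents. Col6a3 measured 11.39, 11.84, 11.02 and 9.84 in shRNA OS and 12.39, 12.22, 12.18 and 11.92 in Cre:lox OS. The Cre:lox OS tumours lay close together, whereas the humeral tumour shRNA OS 4 was far below all others. The difference was -1.15 (SE 0.36, limma adjusted p = 0.347), -0.76 without shRNA OS 4 and -0.63 among tibial tumours.

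Col6a1 measured 9.83, 10.48, 10.31 and 9.07 in shRNA OS and 9.94, 10.15, 11.38 and 11.41 in Cre:lox OS. Col6a2 measured 9.69, 10.49, 10.74 and 9.93 in shRNA OS and 9.91, 9.95, 11.29 and 11.31 in Cre:lox OS. The 2 tibial Cre:lox OS tumours stood above the other 6 in both genes, and the models overlapped. The differences between models were -0.80 (SE 0.41) for Col6a1 and -0.40 (SE 0.38) for Col6a2. That of Col6a1 was -0.51 without shRNA OS 4. That of Col6a2 was -0.17 without Cre:lox OS 3 or without Cre:lox OS 4, -0.23 without shRNA OS 1, -0.63 without Cre:lox OS 1 and -0.62 without Cre:lox OS 2.

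Of the short-chain network formers, Col8a1, which is made by vessel wall and other mesenchymal cells, measured 10.14, 9.87, 11.16 and 10.39 in shRNA OS and 10.52, 11.06, 11.50 and 11.13 in Cre:lox OS. Its difference was -0.67 (SE 0.29, limma adjusted p = 0.509), with shRNA OS 3 among the Cre:lox OS tumours. Among the transmembrane chains, Col25a1, best known from neurons, measured 8.14, 8.67, 8.48 and 7.63 in shRNA OS and 7.60, 7.58, 7.67 and 7.31 in Cre:lox OS. The 3 tibial shRNA OS tumours lay above all others, and the difference was 0.69 (SE 0.22, limma adjusted p = 0.347). Col13a1, Col17a1 and Col23a1 differed by 0.09, 0.09 and -0.22.

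By bone site, the type III chain, Col6a1, Col6a2 and Col14a1 had higher tibial means in both models. Col6a3 went opposite ways, with site differences of 1.58 in shRNA OS and -0.25 in Cre:lox OS. The fibrillar chain Col24a1 had a lower mean, and none of these passed the adjusted threshold. The 5 tibial tumours were compared with the other 3, from humerus (2) and scapula (1), in a fit that also held the model. No member passed the limma adjusted threshold, nor did any of 19938 genes (0%). At an unadjusted p under 0.05 there were 5 of the 40 and 5.64% of all genes. Col6a1, Col14a1, Col6a2 and Col3a1 had higher means in tibial tumours (2.32% of all genes), and Col24a1 had a lower mean (3.33%). Tibial means were higher for 19 of the 40 and for 44.5% of all genes, and the median difference was -0.02 over the members and -0.03 over all genes.

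Col6a1 had the third smallest p of all genes in this comparison. Its tibial mean was 10.68 ± 0.69 (SD, n = 5) against 9.72 ± 0.57 (SD, n = 3), and the difference within models was 1.26 (SE 0.18, unadjusted p = 7.58e-05, limma adjusted p = 0.375). In shRNA OS the 3 tibial tumours averaged 1.14 above the humeral tumour, and in Cre:lox OS the 2 tibial tumours averaged 1.35 above the other 2. Across all 8 tumours the sites overlapped, with tibial shRNA OS tumours near the non-tibial Cre:lox OS tumours. Col6a2 differed by 0.94 (SE 0.29, limma adjusted p = 0.693), and its partner Col6a3 by 0.53 (SE 0.37). The Col6a3 difference was 1.58 in shRNA OS, against a single humeral tumour, and -0.25 in Cre:lox OS.

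Col3a1 differed by 1.04 between sites (SE 0.33, limma adjusted p = 0.697), with 0.75 in shRNA OS and 1.26 in Cre:lox OS, and by 0.47 without the model as a covariate. Col14a1 differed by 1.35 (SE 0.40, limma adjusted p = 0.691), with 1.13 in shRNA OS and 1.52 in Cre:lox OS. In both genes the tibial tumours of each model lay above its other tumours. This separation within both models was also seen in Col6a1, which made 3 members, against 3.01% of all genes. The reverse, tibial tumours below the others in both models, was seen in Col1a2 and Col24a1 (5.52% of all genes), and opposite separation in the models in 5 members (4.97%).

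Col24a1, a fibrillar chain described in developing bone, ran the other way. It measured 8.53, 7.81 and 8.46 in the tibial shRNA OS tumours and 8.06 and 8.19 in the tibial Cre:lox OS tumours. The humeral tumours had 8.89 and 8.94, and the scapular tumour 9.08. All 3 tumours of the humerus and scapula thus lay above all 5 tibial tumours, the single member to separate the sites across models (2% of all genes in that direction, 2.6% in either). The difference was -0.78 (SE 0.20, unadjusted p = 0.00357, limma adjusted p = 0.672). The count of members separating the sites was 7 without shRNA OS 4, 3 without shRNA OS 1 or without Cre:lox OS 4, and 2 without shRNA OS 2 or without Cre:lox OS 3.

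Among markers of other cell types none passed the adjusted threshold. Of 11 fibroblast markers 9 had higher means in tibial tumours, where their mean level was 8.83 to 9.92 against 8.29 to 9.17 elsewhere. Lum and Dcn, proteoglycans that bind collagen fibrils, were 2.78 and 2.59 higher in tibial tumours. Of 11 macrophage markers 10 had an unadjusted p under 0.05 with higher tibial means, against 2.32% of all genes. The mean level of the 11 was 9.69 to 11.33 in tibial tumours and 9.27 to 10.34 elsewhere. Skeletal muscle markers had higher tibial means in 11 of 11 cases, and osteoblast markers lower tibial means in 5 of 5. Their part in the site differences of Col3a1, Col6a1, Col6a2, Col14a1 and Col24a1 was not tested.

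**Figure D4:**
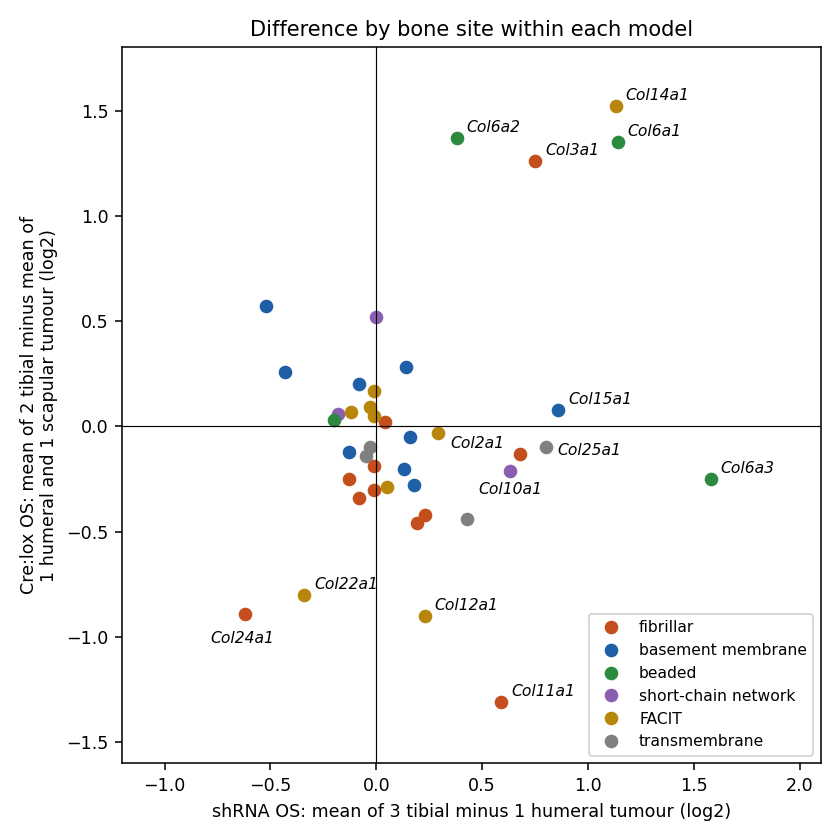
Site difference of each collagen gene within the shRNA OS model (x axis, mean of 3 tibial minus 1 humeral tumour, log2) and within the Cre:lox OS model (y axis, mean of 2 tibial minus mean of 1 humeral and 1 scapular tumour, log2). Points are coloured by structural class and named where either difference passes 0.6 in size. Col3a1, Col6a1, Col6a2 and Col14a1 sit in the upper right, Col22a1 and Col24a1 in the lower left, and Col6a3 and Col11a1 in the lower right, where the models go opposite ways.

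Rb genotype was compared between 6 Rbfl/+ and 2 Rb+/+ tumours, 1 Rb+/+ tumour in each model, in a fit that also held the model. No member and none of 19938 genes passed the limma adjusted threshold (0%). At an unadjusted p under 0.05 there were 3 of the 40 and 4.73% of all genes, 1 higher (3.09% of all genes) and 2 lower (1.64%) in Rbfl/+ tumours. Means were lower in Rbfl/+ tumours for 27 members, whereas 47% of all genes were higher there. Col22a1 differed by -0.95 (SE 0.30), Col2a1 by -0.89 (SE 0.29) and Col8a1 by 0.70 (SE 0.26), each with limma adjusted p = 0.836. The Col2a1 value rested on shRNA OS 2 and was -0.23 without it; it was -1.55 without the other Rb+/+ tumour, Cre:lox OS 1. The count of 3 was 5 without shRNA OS 1. The genotypes did not overlap in 2 members, Col13a1 and Col20a1, both lower in Rbfl/+ tumours (2.33% of all genes in that direction, 4.63% in either). Within each model, all Rbfl/+ tumours lay below the Rb+/+ tumour in 7 members (4.75% of all genes) and above it in 1 (5.74%).

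Chains that assemble into 1 trimer were compared across the 8 tumours in 14 pairs. Correlations are over the same 8 arrays, with two-sided exact permutation p-values over pairings, adjusted over the 14 pairs by Benjamini-Hochberg. Pearson's r passed 0.05 after adjustment in 5 pairs. Other pairs of genes were not correlated, so this count cannot be read as particular to chains of 1 trimer. Col4a1 and Col4a2 had r = 0.98 (exact permutation p = 2.48e-05, adjusted 0.000347) and rho = 1.00 (exact permutation p = 4.96e-05, the smallest that pairings of 8 allow here, adjusted 0.000694). Col1a1 and Col1a2 had r = 0.96 (exact permutation p = 0.000397, adjusted 0.00243) and rho = 0.93 (exact permutation p = 0.00223, adjusted 0.0104). Their r was 0.92 and 0.87 without the 2 tumours farthest from the median, and 0.96 in both pairs after centring within models.

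Col9a2 and Col9a3 had r = 0.94 (exact permutation p = 0.000521, adjusted 0.00243) and rho = 0.93 (exact permutation p = 0.00223, adjusted 0.0104). Col6a1 and Col6a2 had r = 0.89 (exact permutation p = 0.00226, adjusted 0.00632) and rho = 0.90 (exact permutation p = 0.00456, adjusted 0.016). Col4a5 and Col4a6 had r = 0.94 (exact permutation p = 0.00114, adjusted 0.00399), while rho was 0.79 (exact permutation p = 0.0279, adjusted 0.0782). Both were dim, Col4a6 below the array median in each tumour and Col4a5 above it in only 3. Without the 2 farthest tumours r was 0.88, 0.93 and 0.80 for these 3 pairs, and after centring within models 0.96, 0.89 and 0.95. Each model alone has 4 tumours, too few for a correlation within it.

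In 3 of these 5 pairs the genes share a chromosome. Col4a1 and Col4a2, on chromosome 8, are transcribed in opposite directions, and their RefSeq (GRCm38.p6) start sites lie 21 bases apart, at 11312826 for Col4a1 on the minus strand and 11312805 for Col4a2 on the plus strand. The first 22 bases of the 2 transcripts therefore cover the same stretch. The start sites of Col4a6 and Col4a5 lie 1343 bases apart on the X chromosome, with transcription running away from each other. Col6a1 and Col6a2 lie on chromosome 10, while Col1a1 and Col1a2 lie on chromosomes 11 and 6, and Col9a2 and Col9a3 on chromosomes 4 and 2.

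In the other 9 pairs the adjusted p of Pearson's r did not pass. Col6a3 correlated with Col6a1 at r = 0.63 (exact permutation p = 0.1, adjusted 0.176) and rho = 0.31 (exact permutation p = 0.462, adjusted 0.647), and r was 0.21 without the 2 farthest tumours. Col6a3 with Col6a2 had r = 0.25 (exact permutation p = 0.591, adjusted 0.752) and rho = 0.05 (exact permutation p = 0.935, adjusted 0.935). Col11a1 with Col11a2 had r = 0.18 (exact permutation p = 0.678, adjusted 0.791) and rho = -0.05 (exact permutation p = 0.935, adjusted 0.935). The difference Col6a1 minus Col6a3 ran from -2.45 to -0.51 over the tumours, and that of Col1a1 minus Col1a2 from 0.06 to 0.21.

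**Figure D5:**
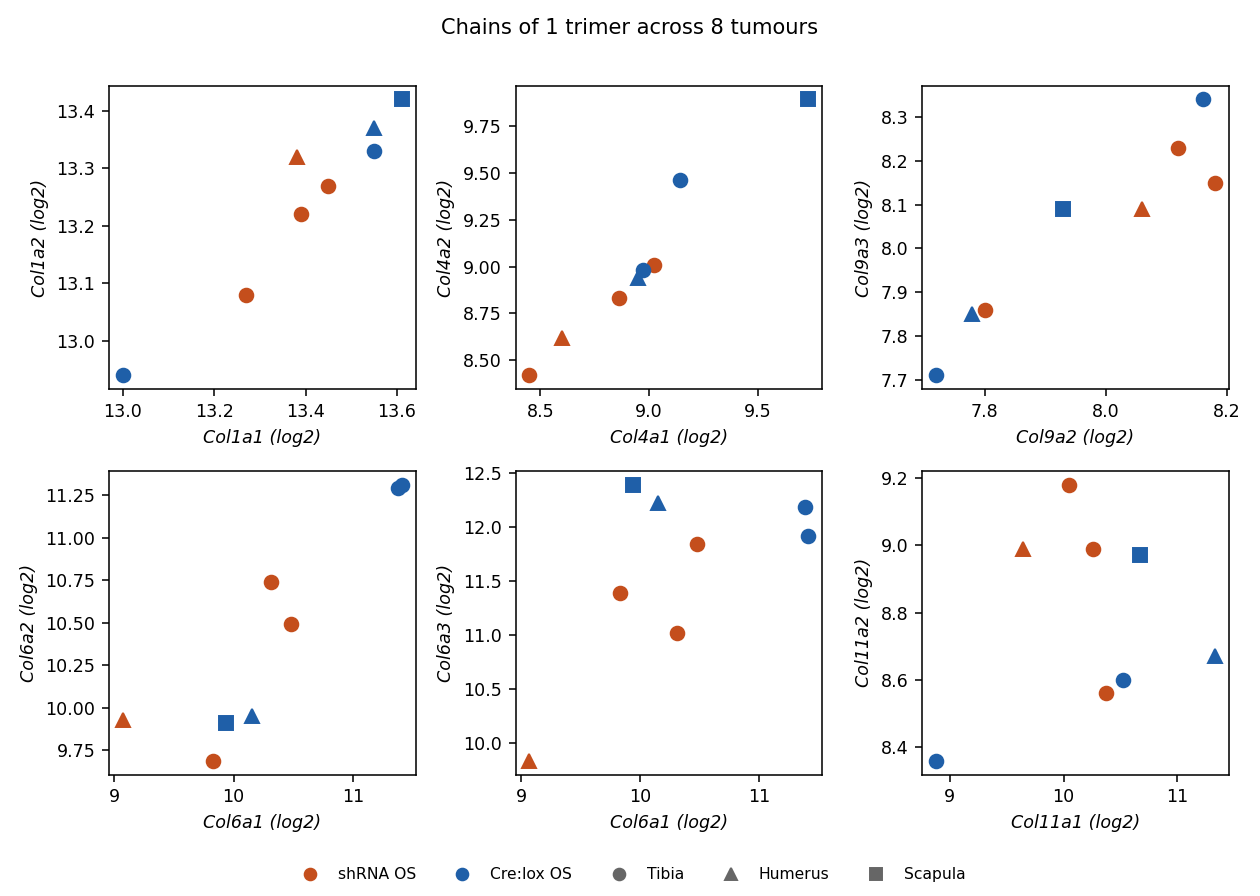
Log2 expression of 6 pairs of chains that share a trimer, each point a tumour (orange shRNA OS, blue Cre:lox OS; circle tibia, triangle humerus, square scapula). Col1a1 with Col1a2, Col4a1 with Col4a2, Col9a2 with Col9a3 and Col6a1 with Col6a2 lie along a rising line (r = 0.96, 0.98, 0.94 and 0.89), whereas Col6a1 with Col6a3 (r = 0.63) and Col11a1 with Col11a2 (r = 0.18) scatter.

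Genes that modify, fold, cut and cross-link collagen were measured for 28 of 31 listed. The shRNA OS mean was higher in 11 and lower in 17, with a median difference of -0.11, and none passed the adjusted threshold. At an unadjusted p under 0.05 there were 4 higher (3.61% of all genes) and 5 lower (6.02% of all genes). Loxl3, a cross-linking lysyl oxidase, measured 9.23, 7.91, 7.79 and 7.31 in shRNA OS and 8.79, 9.34, 10.21 and 9.90 in Cre:lox OS. The tumour shRNA OS 1 lay among the Cre:lox OS tumours and the other 3 shRNA OS tumours below them, and the difference was -1.50 (SE 0.42, limma adjusted p = 0.284). Adamts14, a protease that removes the amino-terminal propeptide, differed by 0.86 (SE 0.24, limma adjusted p = 0.29). Tll1, which removes the carboxy-terminal propeptide, differed by -0.69 (SE 0.22, limma adjusted p = 0.348). It was dim, at 5.80 to 7.35, below the array median in each tumour.

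Collagen receptors were measured for 9 of 10 listed, and none reached an unadjusted p under 0.05 between models (9.63% of all genes). Between sites 2 had higher (2.32% of all genes) and 4 lower (3.33% of all genes) tibial means at that level. Itga10 and Itga11, integrin chains that bind fibrillar collagen, differed by -0.60 (SE 0.16) and -0.77 (SE 0.22), and Lair1, an inhibitory receptor of leukocytes, by 1.15 (SE 0.32). Their limma adjusted p lay between 0.672 and 0.691.

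Regulators of collagen genes, transcription factors and secreted proteins, were measured for 9 of 10 listed. Between models Sp7, the osteoblast factor osterix, was 0.54 higher in shRNA OS (SE 0.21, limma adjusted p = 0.449). Between sites Sox6, a partner of Sox9 in cartilage, differed by -0.98 (SE 0.28, limma adjusted p = 0.691), and Ccn2, a matrix protein induced by TGF-beta, by -0.92 (SE 0.31, limma adjusted p = 0.747). Between Rb genotypes Scx, a factor of tendon cells that drives collagen genes, was 1.28 higher in Rbfl/+ tumours (SE 0.24, unadjusted p = 0.000487, limma adjusted p = 0.836).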

How the data were processed

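Each of the 8 tumours gave RNA to 1 single-colour array. The deposited values are on a log2 scale and were made by the authors with RMA, per the submitters' processing notes; these name the build mm9. The RMA version is not given in the sources used here. Probe sets with 1 gene symbol (21789 of 35556) were kept, and a gene with several was represented by the one of highest mean.

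Models, sites and Rb genotypes were compared with limma 3.58.1 (lmFit and eBayes, R 4.3.3) over 19938 genes, adjusted by Benjamini-Hochberg and called at 0.05; sites and genotypes had the model as covariate. The fit was tested on simulated data. The titles number each tumour, so tumours are the replicates. Values in every tumour were given for chains of types I, II, III, IV (a1, a2), VI, IX (a1), X and XI. They were also given for members of smallest p (5 by model, 5 by site, 3 by Rb genotype). Col9a2 and Col9a3 were given as ranges. Other lists were named by up to 3 genes past an unadjusted p of 0.05 and the most abundant cell type marker. Col25a1, Hapln1 and the 4 dim cartilage markers were named after their values were seen. The members and lists were chosen with earlier results of these data known. Alternative settings covered median centring, quantile normalization, removal of dim genes, probe set means, trend and robust eBayes, array weights, other covariates, subsets of tumours and leaving out each tumour. Neighbouring genes, promoters and overlap within models were examined after seeing the data. Promoters are of GRCm38.p6, another build than mm9, so they were used for sequence and start sites alone.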

Additional observations from a re-analysis of the deposited data

Results flagged for a closer look

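In 3 cases 1 tumour lay far from the other 3 of its model, by the ratio of the gap to the range (past Dixon's limit for 4 samples). Col1a1 in Cre:lox OS 4 (13.00, nearest 13.55) had a ratio of 0.901. Col2a1 in shRNA OS 2 (10.11, nearest 8.64) had a ratio of 0.88. Col10a1 in shRNA OS 1 (9.04, nearest 7.58) had a ratio of 0.901. With 80 such tests, chance at about 1 in 20 gives 4.

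In 5 members the tibial tumours lay on opposite sides of the other tumours in the 2 models, against 4.97% of all genes. The site difference, tibial minus other, was -0.52 in shRNA OS and 0.57 in Cre:lox OS for Col4a6, 0.23 and -0.42 for Col5a2, 1.58 and -0.25 for Col6a3, 0.63 and -0.21 for Col10a1, and 0.59 and -1.31 for Col11a1. In 3 members (11.7% of all genes) the Rb+/+ tumour lay on opposite sides. The difference, Rbfl/+ minus Rb+/+, was -0.74 in shRNA OS and 1.04 in Cre:lox OS for Col6a1, 0.81 and -0.69 for Col24a1, and 0.11 and -0.27 for Col27a1. These differences between models rest on single tumours and were not tested.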

How the results depend on the processing

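No collagen member passed the adjusted threshold in any of the 3 comparisons under any alternative run. The smallest adjusted p of a member ran from 0.0585 (Col3a1, model difference -2.15 with site as a covariate) to 0.379 between models, from 0.111 to 1.0 between sites and from 0.155 to 1.0 between Rb genotypes. With site as a covariate Col6a1 had a model difference of -1.11 (limma adjusted p = 0.0645). The median model difference over members stayed between -0.21 and -0.01. Members at an unadjusted p under 0.05 between sites numbered 5, and 3 without a covariate; between Rb genotypes they numbered 3, with 5 after quantile normalization, 1 with array weights and 0 without a covariate. Members separating the models numbered 7, and 5 to 12 when a tumour was left out or values renormalized. Members separating the sites numbered 1, against 2 after quantile normalization, 2 after median centring and 1 to 7 when a tumour was left out.

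Small differences changed sign: Col1a1 between models was 0.01 after quantile normalization and 0.09 among tibial tumours. Col1a2 was 0.01 with site as a covariate, 0.05 among tibial tumours and -0.15 to 0.01 when a tumour was left out. Col11a1 was 0.53 among tibial tumours and -0.76 to 0.06 when a tumour was left out, and Col9a3 -0.01 to 0.20. The cause was not tested. Pairs passing numbered 4 to 6 against 5. The correlation of Col8a1 with Col8a2 (0.03) was -0.41 centred within models and -0.24 to 0.57 when a tumour was left out. The same ranges were -0.52 to 0.37 for Col11a1 with Col11a2, -0.45 to 0.38 for Col2a1 with Col11a1 and -0.02 to 0.41 for Col6a2 with Col6a3. Without Cre:lox OS 4, Col4a5 with Col4a6 had r = 0.86 (adjusted exact permutation p = 0.0533) and no longer passed.

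No paired analysis was possible because each tumour's title holds a number of its own and the replicate numbers, in accession order, pair no tumours. With 4 arrays a group and no measure of signal over background, differences in dim members could not be resolved.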
